A study of Homo sapiens with 15 samples.

Results

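A list of 38 skeletal muscle genes was followed in BEAS-2B cells, an established line of immortalised human bronchial epithelial cells, across 6 conditions. The genes encode the thin and thick filaments of the sarcomere, its scaffold, the machinery that couples excitation to contraction, proteins of myoblast fusion and the muscle cell surface, and the energy supply of the fibre. They were a fixed list of symbols, all 38 of which were found among the 28395 genes of the count table, and the list was drawn up with their levels in these samples known, so the levels are given as a description of the list and not as evidence for it. Cells of the exposed groups received secondary polyethylene terephthalate nanoplastics (PET-NPLs) at 50 µg/mL, and every control group was an unexposed culture of the same line taken at the matched time. Total RNA was sequenced from 2 control and 2 exposed samples at 24 h, from 2 and 2 at 15 weeks, and from 3 control and 4 exposed samples at 30 weeks. The labels give batch 1 for 24 h and 15 weeks and batch 2 for 30 weeks, which leaves exposed and control cells of a time point in the same batch but means that time and batch cannot be told apart between 15 and 30 weeks. All samples came from 1 cell line, and nothing in the labels says that replicates were separate cultures, so the p-values measure the spread between these samples.

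In a muscle fibre, myosin of the thick filament pulls on actin of the thin filament once calcium binds troponin, a complex of a calcium-binding subunit (C), an inhibitory subunit (I) and a tropomyosin-binding subunit (T). An electrical signal reaches the calcium store through a voltage-sensing channel in the plasma membrane that is coupled to the ryanodine receptor, the release channel of the store. Many of these proteins come as families of isoforms, with embryonic or cardiac-type forms made first in developing muscle and fast adult forms made late, and bronchial epithelium is not known as a site of either.

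Total counts per sample ran from 23143202 to 31459990. The share of 6 abundant small noncoding RNAs was 9.75% to 12.9% in the samples of the first 2 time points, 22.3% to 31.0% in the 30-week controls and 17.04% to 21.5% in the 30-week exposed samples. Exposed replicate 2 at 30 weeks stood somewhat apart from the other exposed samples, with correlations of log2 CPM across genes of 0.976 to 0.981 against about 0.991 among the others. Of the labelled cell type, the simple-epithelial keratins KRT8 and KRT18 were counted in every sample, whereas the basal keratin KRT5 was at 0 in all 15-week and 30-week samples and the epithelial adhesion genes EPCAM and CDH1 did not exceed 19 counts there. Levels are given as CPM, counts relative to the library size scaled by trimmed mean of M-values (TMM), and a fold change is the log2 value fitted by edgeR, called at a Benjamini-Hochberg adjusted p under 0.05 over all genes tested.

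Of the 38 genes, 20 had enough counts to be tested, 10 were detected in some sample but stayed below the filter on low counts, and 8 never exceeded 3 counts in any of the 15 samples. The 8 undetected genes were the fast troponins TNNT3 and TNNI2, the slow and perinatal myosin heavy chains MYH7 and MYH8, the myosin-binding protein MYBPC1, the voltage-sensing calcium channel subunit CACNA1S, the muscle creatine kinase CKM and the calcium store protein CASQ2. TNNI2 had no count in any sample, and a count of 0 in a library of this depth allows a level of up to 0.0885 to 0.129 CPM, the value of 3 counts. The 10 genes between were TNNC2, ACTA1, MYH1, MYH2, MYL1, MYL4, MYOM1, CACNG1, MYMK and MB, whose highest counts in any sample ran from 4 to 13. Because a gene could pass the filter through the 30-week controls alone, the 20 tested genes are not a sample of the 38.

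**Figure D1:**
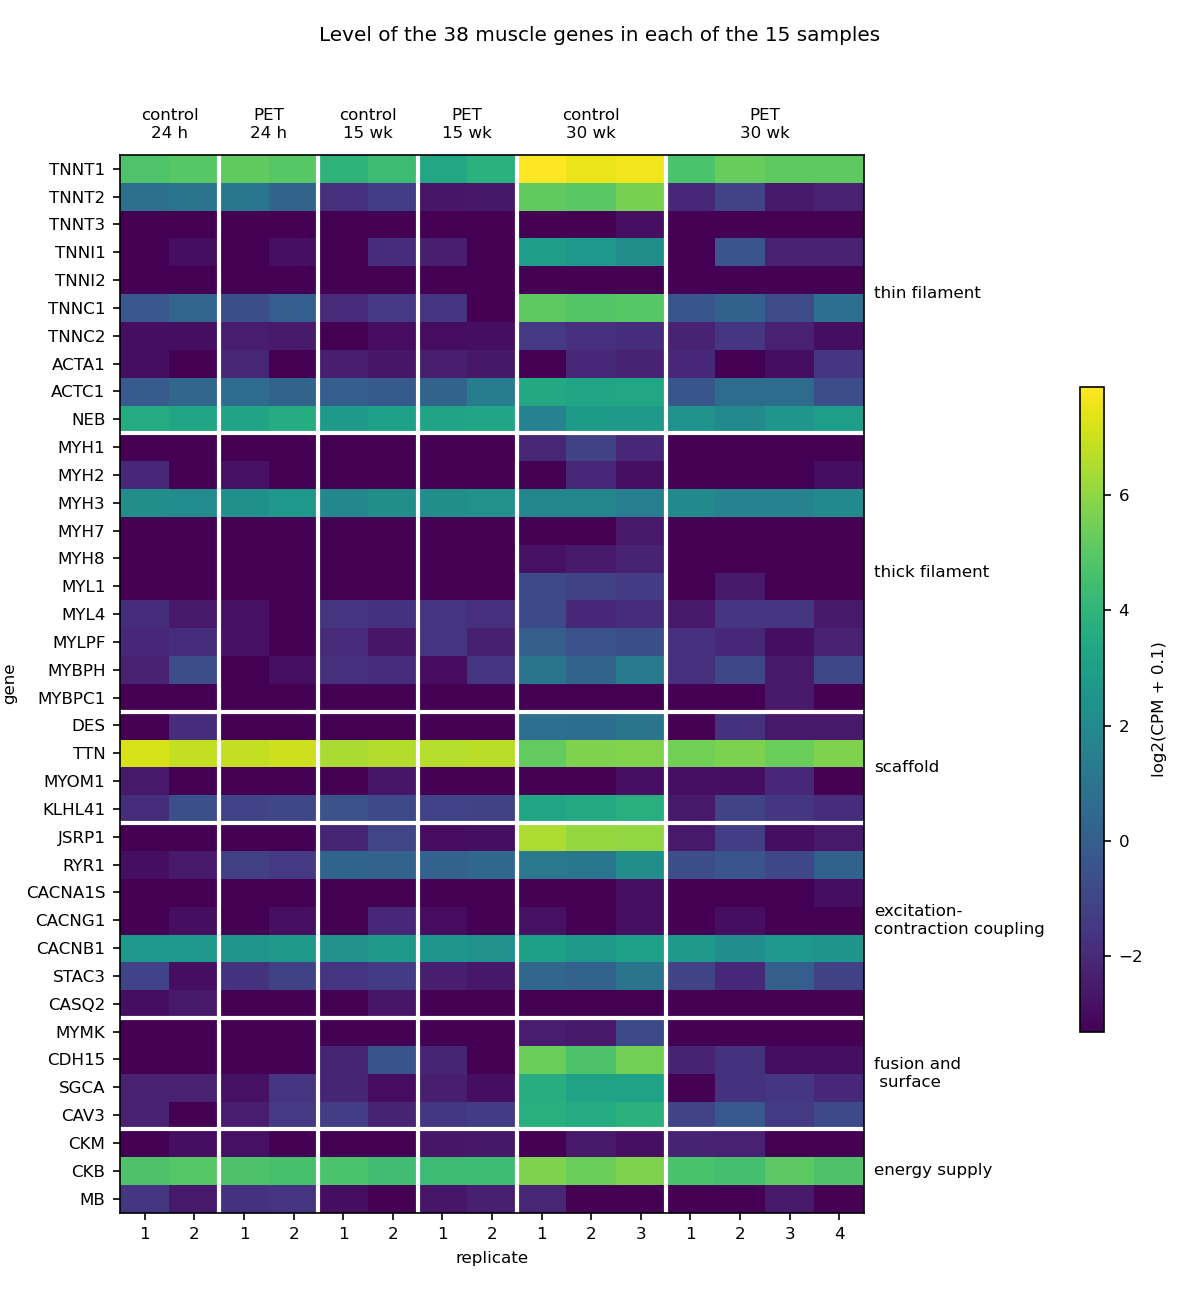
Each row is 1 of the 38 genes, grouped by role, and each column 1 of the 15 samples, grouped by condition. Colour gives log2(CPM + 0.1). The troponins TNNT1, TNNT2, TNNI1 and TNNC1, and ACTC1, KLHL41, JSRP1, CDH15, SGCA and CAV3, are brightest in the 3 control samples at 30 weeks. TTN, NEB, MYH3 and CACNB1 are present in all 15 samples, and the 8 undetected genes are dark throughout.

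At 30 weeks the list split in a simple way. Among the 20 tested genes, 16 were called lower in exposed than in control cells and 0 higher, where 11.7% of all 16740 tested genes were called lower and 12% higher. In all 16 each of the 3 controls lay above each of the 4 exposed samples, against 13% of all tested genes. These controls also lay above each of the other 12 samples of the series. The share of all genes that did so was not counted, and a gene could pass the filter through these controls alone. The list was chosen with this contrast known, so the count describes it. Fitted log2 changes of the 16 ran from -9.21 for JSRP1 to -0.83 for CKB with a median of -4.46, and adjusted p-values from edgeR ran from 2.59e-10 to 0.0346. The 4 genes that were not called were the myosin heavy chain MYH3, the giant proteins TTN and NEB, and the calcium channel subunit CACNB1. In bulk RNA, fewer cells that express a gene and less of its RNA per cell cannot be told apart.

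Levels were summed over the list to see its weight in each library. The 38 genes together made up 510 to 602 CPM in the 30-week controls and 116 to 135 CPM in the 30-week exposed samples. At 24 h the sum was 204 to 229 CPM in controls and 202 to 215 CPM in exposed cells, and at 15 weeks it was 149 to 164 CPM and 155 to 166 CPM. At 24 h and 15 weeks TTN alone gave 56.6% to 64.9% of the list's counts. In the 30-week controls TTN gave 6.09% to 10.4% and TNNT1 gave 34.8% to 39.1%.

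The upstream sequences are shown for 5 of the genes that were lower at 30 weeks and for 2 muscle genes that stayed at or near the detection floor, so that the windows of the high and the silent genes can be read side by side. They are the 250 bases before the start given for each gene in the RefSeq promoter windows (GRCh38.p14), written in the direction of the gene, and for MYBPH this start lies inside the outermost annotated span of the gene. Capitals mark the E-boxes CAGCTG and CACCTG, to which myogenic basic helix-loop-helix factors can bind, the MCAT element (CATTCC on either strand), the A/T-rich MEF2 box, and the CArG box, the element of serum response factor. Each of the 5 lower genes shown holds at least 1 of these, while TNNT1 and RYR1, also lower, hold none and are not shown.
TNNT2, cardiac-type troponin T, chr1:201377681-201377930, minus strand: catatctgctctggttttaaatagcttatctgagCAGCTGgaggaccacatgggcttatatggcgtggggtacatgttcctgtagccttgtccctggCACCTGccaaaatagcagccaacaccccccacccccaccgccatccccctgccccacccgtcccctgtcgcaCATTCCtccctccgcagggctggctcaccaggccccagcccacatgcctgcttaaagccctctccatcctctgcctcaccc
KLHL41, a kelch protein of the sarcomere, chr2:169509452-169509701, plus strand: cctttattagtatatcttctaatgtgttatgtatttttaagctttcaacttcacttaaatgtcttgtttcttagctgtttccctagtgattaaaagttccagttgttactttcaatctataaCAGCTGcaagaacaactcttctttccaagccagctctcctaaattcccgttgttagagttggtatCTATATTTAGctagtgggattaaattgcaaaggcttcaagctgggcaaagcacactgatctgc
CAV3, muscle caveolin, chr3:8733552-8733801, plus strand: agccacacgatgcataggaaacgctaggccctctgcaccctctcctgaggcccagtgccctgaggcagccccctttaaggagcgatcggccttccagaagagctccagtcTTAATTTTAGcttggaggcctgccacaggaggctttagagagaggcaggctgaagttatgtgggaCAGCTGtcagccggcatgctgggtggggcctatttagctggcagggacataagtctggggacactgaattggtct
MYBPH, myosin-binding protein H, chr1:203175827-203176076, minus strand: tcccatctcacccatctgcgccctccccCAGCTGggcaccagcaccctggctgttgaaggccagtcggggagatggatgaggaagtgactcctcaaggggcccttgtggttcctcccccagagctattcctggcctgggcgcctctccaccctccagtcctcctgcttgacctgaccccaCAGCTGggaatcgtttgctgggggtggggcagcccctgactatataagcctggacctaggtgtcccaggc
ACTC1, cardiac-type sarcomeric actin, chr15:34795550-34795799, minus strand: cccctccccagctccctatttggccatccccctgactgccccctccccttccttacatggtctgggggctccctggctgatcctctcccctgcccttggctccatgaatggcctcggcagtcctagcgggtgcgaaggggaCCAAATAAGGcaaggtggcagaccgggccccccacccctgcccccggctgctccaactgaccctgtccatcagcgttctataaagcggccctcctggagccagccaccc
ACTA1, adult skeletal actin, not tested, chr1:229434095-229434344, minus strand: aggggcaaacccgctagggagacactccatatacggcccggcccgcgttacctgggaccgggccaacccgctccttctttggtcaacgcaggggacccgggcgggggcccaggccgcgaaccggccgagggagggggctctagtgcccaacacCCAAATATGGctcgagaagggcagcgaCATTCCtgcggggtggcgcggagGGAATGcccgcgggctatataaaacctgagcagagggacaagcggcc
CKM, muscle creatine kinase, undetected, chr19:45322876-45323125, minus strand: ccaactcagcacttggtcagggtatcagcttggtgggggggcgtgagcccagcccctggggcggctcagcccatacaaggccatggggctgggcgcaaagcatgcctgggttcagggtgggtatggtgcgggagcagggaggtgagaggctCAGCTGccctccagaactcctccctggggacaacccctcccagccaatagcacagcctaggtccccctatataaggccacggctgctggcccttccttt

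Windows of 250 bases before to 50 bases after the start were at hand for 23 of the 38 genes. CAGCTG, which reads the same on both strands, lay in 8 of the 23 windows (34.8%) and in 17.7% of all 18304 promoter windows. CACCTG lay in 6 of them and in 20.1% of all windows, and CATTCC in 9 of them and in 12.4%. The MEF2 box lay in 7 of the 23 windows (30.4%), among them KLHL41, CAV3, CKB and TTN, against 2.23% of all windows, and the CArG box lay in 3 (ACTC1, ACTA1 and MYOM1), against 1.17%. Both strands were searched, and no 2 matches in these windows overlapped. CAGCTG lay in 4 of the 9 windows of genes that were lower at 30 weeks (TNNT2, MYBPH, KLHL41 and CAV3) and in 4 of the 14 others (CACNA1S, MYBPC1, MYH2 and CKM). The windows of RYR1 and of TNNT1, the most abundant gene of the list per length, held none of these motifs. The motifs thus lay in windows of high and of silent genes alike, and they are matches of letters, not sites.

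Troponin, the calcium switch of the thin filament, was the most prominent part of the list. TNNT1 (Entrez gene 7138, chr19:55132698-55149206, minus strand), the slow skeletal troponin T, stood at 235, 186 and 202 CPM in the 30-week controls and at 26.4, 38.1, 34.6 and 34.3 CPM in the exposed samples. The ranges were far apart, and the controls of the other time points (27.3 and 31.2 CPM at 24 h, 15.4 and 20.5 CPM at 15 weeks) lay with or below the exposed cells. The fitted log2 change at 30 weeks was -2.64 (standard error 0.156), and the ratio of summed counts, control to exposed, was 6.18 (95% counting interval 5.96 to 6.40). TNNT1 remained well detected in exposed cells.

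TNNT2 (chr1:201359014-201377680), the troponin T of heart and embryonic skeletal muscle, stood at 35.1, 32.3 and 47.8 CPM in the 30-week controls. The exposed samples held 4, 11, 2 and 3 counts, which is 0.0695 to 0.385 CPM. Every exposed sample was near the floor, and the log2 change was -7.73 (standard error 0.323) with a count ratio of 219 (141 to 359). Without exposed replicate 2, which held 11 of these counts, the log2 change was -8.44. The gene was not silent at the outset, since the 24 h samples held 1.66 and 1.85 CPM in controls and 2.00 and 1.07 CPM in exposed cells. It then stood lower at 15 weeks, at 6 and 11 counts in controls and 2 and 2 counts in exposed cells.

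TNNC1 (chr3:52451100-52454041), the troponin C of slow and cardiac muscle, was at 34.1, 29.2 and 30.8 CPM in the 30-week controls and at 0.688, 1.02, 0.487 and 1.58 CPM in exposed cells (log2 change -5.05, standard error 0.322). TNNI1 (chr1:201403784-201421730), slow skeletal troponin I, was at 7.35, 6.10 and 4.58 CPM in these controls, and the exposed samples held 0, 19, 3 and 3 counts. Exposed replicate 2 therefore stood above the other exposed samples in TNNI1 while remaining below every control, and the log2 change of -4.74 (standard error 0.608) became -6.32 without that sample and -5.64 with limma-voom. The fast-fibre partners were not made at comparable levels. TNNC2 held 6, 5 and 5 counts in the 30-week controls and 3, 7, 3 and 1 in exposed cells, so that the groups overlapped, and TNNT3 held at most 1 count and TNNI2 none.

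Actin of the sarcomere showed the same split between isoforms. ACTC1 (chr15:34790230-34795549), the cardiac-type actin that developing skeletal muscle makes first, stood at 10.7, 9.93 and 10.3 CPM in the 30-week controls and at 0.688, 1.44, 1.46 and 0.528 CPM in exposed cells. The exposed samples lay around the level of the 24 h samples (0.831 to 1.45 CPM), and the log2 change was -3.32 (standard error 0.315). ACTA1, the adult skeletal actin, held 0, 4 and 3 counts in these controls and 4, 0, 1 and 7 counts in exposed cells and did not separate them. The 2 genes are close paralogs, and how reads shared between them were counted is not given in the sources used here. NEB, the ruler protein along the thin filament, stood at 3.05, 6.71 and 6.55 CPM in controls and 3.96 to 7.39 CPM in exposed cells at 30 weeks, with a log2 change of 0.017 (standard error 0.251) whose sign changed with other settings. NEB overlaps RIF1, a gene of DNA replication timing, which stood at 130 and 158 CPM in these groups, and the counting strand is not given in the sources used here.

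**Figure D2:**
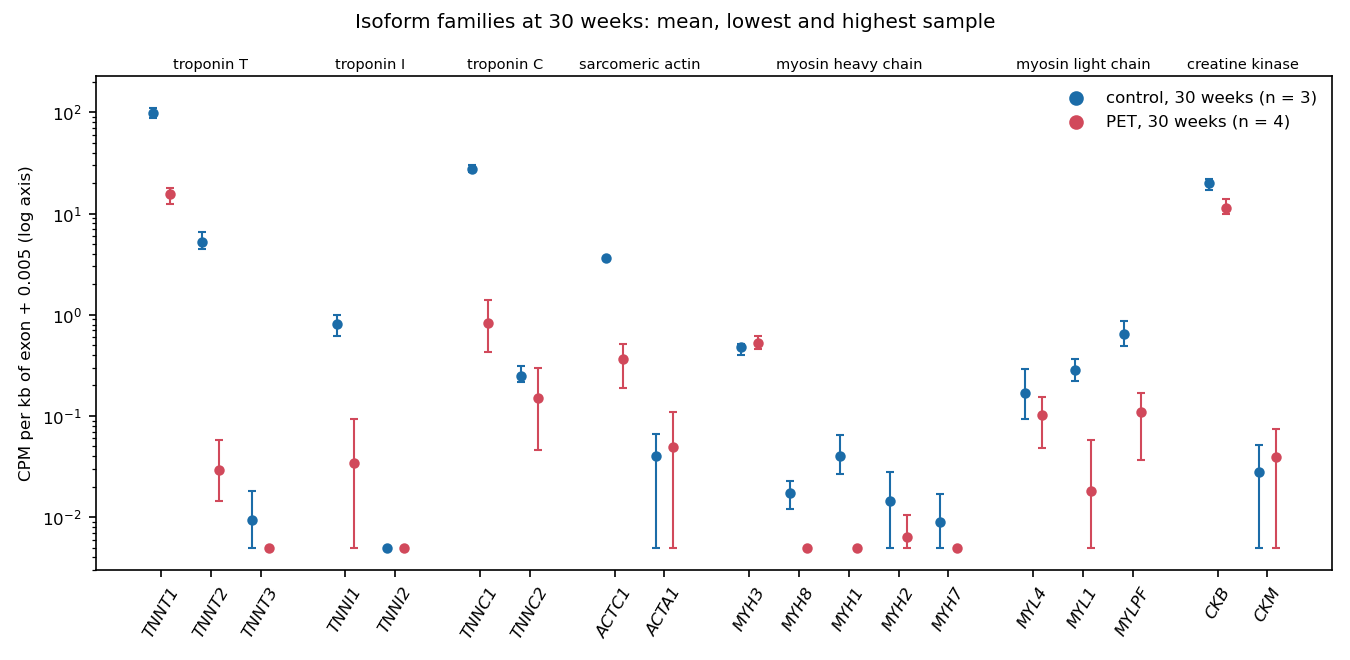
Levels at 30 weeks in CPM per kilobase of exon, offset by 0.005 on a log axis, for 7 families of isoforms. Points are means and bars reach from the lowest to the highest sample, with 3 control samples in blue and 4 exposed samples in red. TNNT1, TNNC1, CKB and TNNT2 lead in the controls, and TNNI2 lies at the offset in both groups.

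Per kilobase of exon, the level of TNNT1 in the 30-week controls was 98.1 ± 11.8 CPM per kb (SD, n = 3), followed by JSRP1 at 39.0 ± 6.47, TNNC1 at 27.5 ± 2.19 and CKB at 20.2 ± 2.75 CPM per kb, in ranges that did not overlap. Next came CDH15 at 8.06 ± 2.08, CAV3 at 6.78 ± 0.684 and TNNT2 at 5.24 ± 1.13 CPM per kb, whose ranges over the 3 samples overlapped from each to the next. KLHL41, ACTC1 and SGCA lay between 3.27 and 4.32 CPM per kb. TTN, in spite of its many counts, was at 0.403 ± 0.0820 CPM per kb, a level like that of MYH3 at 0.473 ± 0.0665. Lengths are those of the union of annotated exons, so a gene with many rarely used exons is set too low on this scale.

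The isoforms were then sorted by stage. Of the 7 genes counted here as developmental forms (TNNT2, TNNI1, ACTC1, MYH3, MYH8, MYL4 and CKB), 5 were tested and 4 were lower in exposed cells at 30 weeks. Of the 10 counted as adult forms (TNNT1, TNNC1, TNNT3, TNNI2, TNNC2, MYH1, MYH2, MYH7, ACTA1 and CKM), only the slow-fibre genes TNNT1 and TNNC1 were tested, and both were lower. Another 4 adult forms were detected below the filter and 4 were undetected. In no condition did a fast troponin, adult fast myosin heavy chain, adult skeletal actin or the muscle creatine kinase exceed 10 counts in a sample. The fast myosin light chains MYLPF and MYL1, not sorted by stage here, reached 22 and 11 counts. Slow troponins are made in both developing and adult muscle. TNNI1, the slow skeletal troponin I, was counted as developmental, while TNNT1 and TNNC1 were counted as adult. The sorting is therefore not uniform, and the counts by stage depend on it.

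Myosin, the motor of the thick filament, was counted at low levels only. Of 3 tested thick-filament genes, 2 (MYLPF and MYBPH) were called lower at 30 weeks, beside 11.7% of all tested genes. The embryonic heavy chain MYH3 (chr17:10628532-10678417) was present in all 15 samples, with 3.44, 3.39 and 2.65 CPM in the 30-week controls and 4.06, 3.05, 3.02 and 3.84 CPM in exposed cells. The groups overlapped, and the log2 change was 0.15 (standard error 0.180). MYH3 overlaps SCO1, a mitochondrial assembly factor that stood at 34.3 and 33.7 CPM in the same groups, and the counting strand is not given in the sources used here. MYH1, an adult fast heavy chain, held 3, 10 and 4 counts in the 30-week controls and 0 in each of the other 12 samples. Control replicate 1 lay at the floor of 3 counts, so no bound on the fold change of MYH1 is given. MYH8 held 1 to 3 counts in these controls, MYH2 at most 4 counts in any sample and MYH7 at most 2, and reads of these near-identical heavy chains may be shared among them.

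Of the light chains MYLPF had enough counts to be tested. MYLPF, the fast regulatory light chain, was at 0.946, 0.614 and 0.537 CPM in the 30-week controls and 0.0348 to 0.181 CPM in exposed cells (log2 change -2.55, standard error 0.522). MYL1, the fast essential light chain, held 11, 10 and 8 counts in the controls, 0, 2, 0 and 0 in exposed cells, and 0 in every sample of the earlier times, a count ratio at 30 weeks of 20.8 (5.27 to 180). MYL4, the embryonic and atrial light chain, held 4 to 11 and 2 to 7 counts in the same groups and overlapped. MYBPH was at 1.89, 1.08 and 2.29 CPM in controls and 0.0695 to 0.422 CPM in exposed cells, with a log2 change of -2.66 (standard error 0.548). It overlaps CHI3L1, a chitinase-like secreted protein, which itself stood at 2.68 CPM in controls and 0.301 CPM in exposed cells, and the part of shared reads was not tested.

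Among scaffold genes, KLHL41 and the muscle intermediate filament DES were called and TTN was not. KLHL41 (chr2:169509702-169526258), which stabilises nebulin, stood at 9.68, 11.5 and 12.7 CPM in the 30-week controls and at 0.0724, 0.385, 0.243 and 0.176 CPM in exposed cells (log2 change -5.65, standard error 0.330). At the earlier times it was present in all samples at 0.173 to 0.632 CPM. DES held 37, 43 and 53 counts in the controls and 0, 6, 2 and 2 in exposed cells, and 0 in all 4 samples at 15 weeks, with a log2 change of -4.19 (standard error 0.638) that became -5.03 without exposed replicate 2. TTN (chr2:178525989-178807423) was at 36.7, 53.2 and 54.0 CPM in controls and 44.7, 50.7, 41.3 and 51.9 CPM in exposed cells, so the groups overlapped. Its log2 change was -0.025 (standard error 0.144), and at 24 h it had stood at 114 to 147 CPM over both arms. TTN overlaps its antisense gene TTN-AS1, at 4.36 and 3.48 CPM in the 30-week groups, and without a known counting strand the reads of both cannot be told apart. MYOM1, the cross-linker of the M band, held at most 4 counts in any sample.

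**Figure D3:**
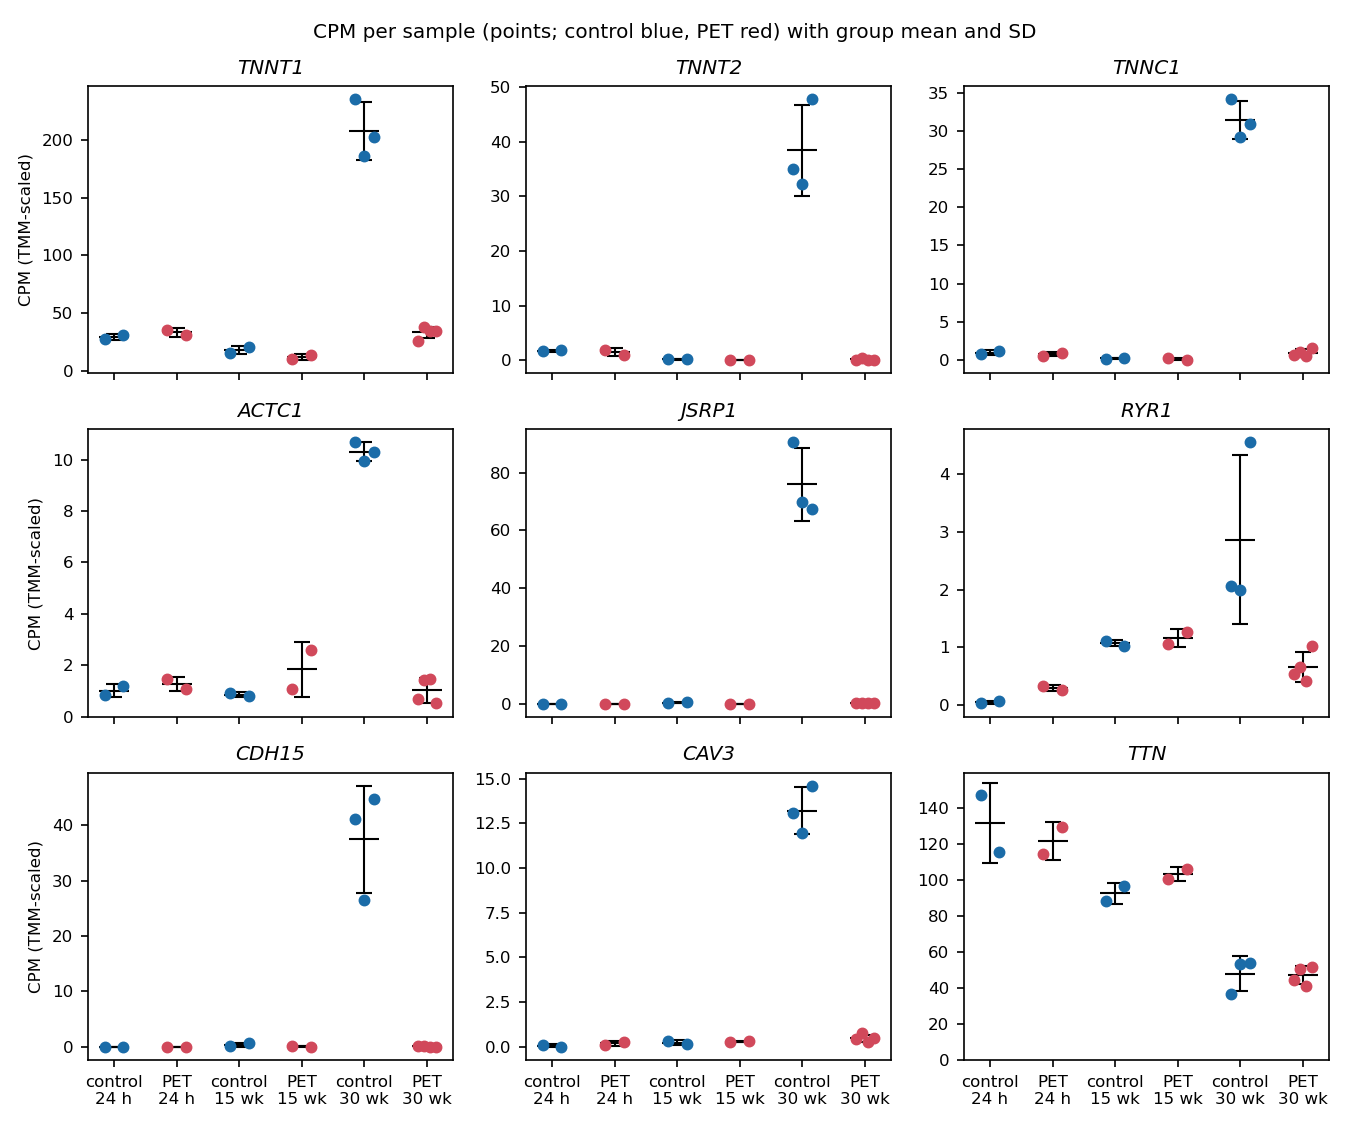
CPM in each sample (points) for 9 genes over the 6 conditions, controls in blue and exposed samples in red, with the group mean and SD. Scales differ between panels. In 8 panels the 3 controls at 30 weeks stand above all other samples, from 186 to 235 CPM in TNNT1, and in the TTN panel the 30-week groups overlap.

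Genes of excitation-contraction coupling differed widely among themselves. JSRP1 (Entrez gene 126306), a protein of the junctional calcium store that interacts with the voltage sensor, showed the largest fitted change of the 20 tested genes. Its counts were 2104, 1936 and 1887 in the 30-week controls and 2, 9, 1 and 2 in exposed cells, and no read fell on it in the 4 samples at 24 h. The ratio of summed counts was 608 (362 to 1113), and the log2 change was -9.21 (standard error 0.344), or -10.23 without exposed replicate 2, which held 9 of the 14 exposed counts. At 15 weeks the 2 controls held 4 and 14 counts and both exposed samples 1.

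RYR1 (chr19:38433691-38587564), the ryanodine receptor of skeletal muscle, took another course. It held 1 and 2 counts in the 24 h controls and 8 and 7 in exposed cells, and then 35 and 35 in the 15-week controls and 34 and 39 in exposed cells. At 30 weeks it stood at 2.06, 1.99 and 4.55 CPM in controls and 0.543, 0.666, 0.417 and 1.02 CPM in exposed cells, with control replicate 3 well above the other controls. The log2 change at 30 weeks was -2.11 (standard error 0.340). STAC3, the adaptor that holds the voltage sensor at the membrane, was at 1.20, 1.05 and 1.90 CPM in controls and 0.398, 0.140, 0.939 and 0.352 CPM in exposed cells. Its groups came close to each other, and the call (log2 change -1.59, standard error 0.513, adjusted p = 0.0346 from edgeR) was lost in 6 of 23 other settings, with adjusted p from 0.00128 to 0.134 over all of them. Without exposed replicate 3, the highest exposed sample, the log2 change was -2.21.

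The voltage-sensing channel itself was not detected beyond stray counts. CACNA1S, its pore, held at most 1 count in any sample, and CACNG1, an auxiliary subunit, at most 5. CACNB1, the auxiliary beta subunit, was present everywhere at 4.38 to 8.48 CPM, with 8.21, 6.35 and 8.48 CPM in the 30-week controls and 6.63, 4.38, 6.26 and 5.49 CPM in exposed cells. These groups overlapped, and the log2 change was -0.43 (standard error 0.169, adjusted p = 0.0764 from edgeR). CASQ2, the cardiac calsequestrin that binds calcium in the store, held at most 2 counts.

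Of the 4 genes of the fusing and mature muscle surface, 3 were tested and 3 were lower, beside 11.7% of all tested genes. A gene could be tested through the 30-week controls alone, so this count only describes the list. CDH15 (chr16:89171748-89195492), the M-cadherin of myoblasts, stood at 41.1, 26.5 and 44.8 CPM in the 30-week controls, while exposed cells held 3, 6, 1 and 1 counts (log2 change -8.53, standard error 0.458, count ratio 384 with an interval of 214 to 770). Without exposed replicate 2 the log2 change of CDH15 was -9.21. SGCA (chr17:50166005-50175928), the alpha subunit of the sarcoglycan complex, was at 12.5, 8.56 and 8.88 CPM in controls and 0 to 0.243 CPM in exposed cells (log2 change -6.02, standard error 0.415). CAV3 (chr3:8733802-8746758), the caveolin of muscle, was at 13.1, 11.9 and 14.6 CPM in controls and 0.278 to 0.736 CPM in exposed cells (log2 change -4.81, standard error 0.310). CAV3 overlaps OXTR, the oxytocin receptor, which stood at 16.1 CPM in controls and 10.2 CPM in exposed cells, and the part of shared reads was not tested. MYMK, the fusogen myomaker, held 2, 2 and 13 counts in the controls, mostly in replicate 3, and 0 in each of the other 12 samples. Control replicates 1 and 2 lay below the floor of 3 counts, so no bound on its fold change is given.

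In the energy supply, CKB, the creatine kinase of brain and immature muscle, stood at 51.9, 40.6 and 51.9 CPM in the 30-week controls and 25.2, 23.6, 33.0 and 26.8 CPM in exposed cells. All 3 controls were higher, but the log2 change of -0.83 (standard error 0.132) was the smallest of the 16. CKM held at most 3 counts and MB, myoglobin, at most 7 counts in any sample, with no order between the groups at 30 weeks.

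**Figure D4:**
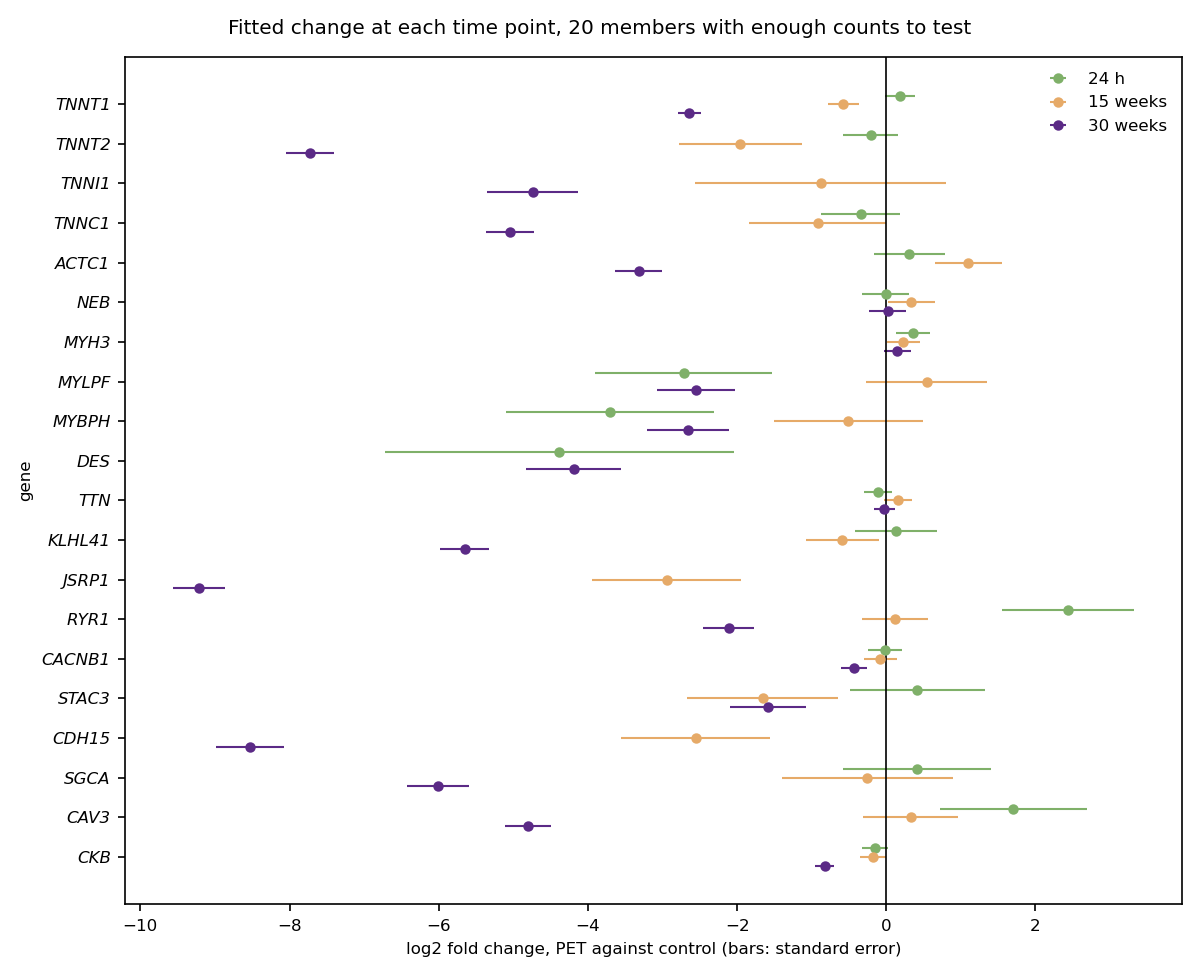
Fitted log2 fold changes, exposed against control, with standard errors, for the 20 tested genes at 24 h (green), 15 weeks (orange) and 30 weeks (purple). Points are left out where neither group of a time point had a sample above 3 counts. At 30 weeks the 16 called genes lie to the left of 0, from -0.83 for CKB to -9.21 for JSRP1, and MYH3, NEB and TTN lie at 0 within their errors.

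No member was called between exposed and control cells before 30 weeks. At 24 h edgeR called 0 of the 20 genes, and 0 of all 16740, with 3 of the 20 at an unadjusted p under 0.05 against 1.65% of all genes. At 15 weeks it again called 0 of 20 and 0 of 16740, with 5 of the 20 at an unadjusted p under 0.05 (TNNT1, TNNT2, ACTC1, JSRP1 and CDH15) against 4.92% of all genes. DESeq2 and limma-voom also called 0 members at both times. With 2 samples a group these counts do not show that the levels were alike. Not overlapping at 15 weeks were 7 tested genes with lower exposed samples and 4 with higher ones, where 22% and 23.4% of all genes did the same.

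The 15-week values of the genes that later stood high in controls were small, and DES had no count in any of the 4 samples. TNNT1 was at 15.4 and 20.5 CPM in controls and 10.1 and 13.99 CPM in exposed cells (log2 change -0.58, standard error 0.208, edgeR adjusted p = 0.903). CDH15 held 4 and 22 counts in controls and 4 and 0 in exposed cells. In 7 of the 16 genes control replicate 2 was the highest of the 4 samples at 15 weeks. The share of all genes that did so was not counted, and several of the 16 held only a few counts there. ACTC1 went the other way, with 29 and 27 counts in controls and 35 and 80 in exposed cells. MYOD1, the myogenic regulator, held 64 and 194 counts in the same 2 controls and 44 to 48 in exposed cells.

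The rise of the list lay between 15 and 30 weeks in the controls. Of the 20 tested genes 16 were higher in the 30-week than in the 15-week controls and 1 (TTN) was lower, where 25.6% and 24.6% of all genes were called higher and lower. The fitted log2 changes included 8.09 for JSRP1 (standard error 0.423), 7.19 for TNNT2 (0.412) and 3.53 for TNNT1 (0.214). In exposed cells 3 genes were higher at 30 than at 15 weeks (TNNT1 by 1.47, TNNC1 by 3.04 and STAC3 by 2.47 on the log2 scale) and 2 were lower (TTN and NEB), where 23.3% and 22.7% of all genes were called. These 2 comparisons cross the batches. The 5 calls in exposed cells fell to 3 without exposed replicate 2 at 15 weeks. Between the 24 h and 15-week controls, both in batch 1, JSRP1, RYR1 and CDH15 were called higher and TNNT1, TNNT2 and TNNC1 lower, against 12.7% and 12.2% of all genes, and these 6 calls fell to 2 without control replicate 2 at 24 h and to 3 without control replicate 2 at 15 weeks.

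The change of the exposure effect itself from 15 to 30 weeks was fitted as an interaction. It also crosses the batches, and is free of the batch only if the batch acted alike on exposed and control cells. The interaction was called for some of the list. The effect was called lower at 30 weeks for 7 of the 20 genes (TNNT1, TNNT2, ACTC1, RYR1, SGCA, CAV3 and KLHL41) and higher for 0, where 2.08% of all genes were called lower and 2.66% higher. JSRP1 and CDH15, the genes with the largest changes at 30 weeks, were not among them, with differences of -6.27 (standard error 2.14, edgeR adjusted p = 0.14) and -5.97 (standard error 1.85, edgeR adjusted p = 0.096), and their 15-week counts over all 4 samples were 20 and 30. The 7 calls fell to 4 without replicate 1 of either 15-week group.

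Regulators and markers of other cell types were counted beside the list. The summed level of 7 skeletal muscle regulators was 96.0 to 134 CPM in the 30-week controls and 0.452 to 1.05 CPM in exposed cells. MYOD1 held 1823 to 2461 counts in these controls and 9 to 21 in exposed cells, MYOG 59 to 89 and 0 to 3, and MEF2C 561 to 760 and 0 to 18, while MYF5, MYF6 and PAX7 were at 0 in all samples of the 15 and 30 weeks. Of the 7 regulators, 3 never exceeded 3 counts in the 30-week controls and 5 never did in exposed cells. The remaining regulator, PAX3, thus exceeded 3 counts in some control at 30 weeks and in no exposed sample. The summed bronchial epithelial list went the opposite way, at 314 to 411 CPM in controls and 880 to 1097 CPM in exposed cells, with KRT8 at 150 and 616 CPM. The cardiomyocyte list was at 1.79 to 2.19 CPM and 1.55 to 2.38 CPM, with MYH6 and GATA4 at 0 in both groups. The fibroblast list was at 23.6 to 89.7 CPM and 7.996 to 12.9 CPM, and the smooth muscle list at 178 to 210 CPM and 286 to 393 CPM. The part of these cell-type markers in the result was not tested. The share of the small noncoding RNAs also moved with the groups, and with the counts of these RNAs removed 17 of 21 tested members were called lower and 0 higher.

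Other genes of the same structures were then counted, to see how far the pattern went beyond the list. Of 155 companion genes of the sarcomere, triad, dystrophin complex, fusion and muscle metabolism and of their non-muscle counterparts, 112 were tested, and at 30 weeks 25 (22.3%) were called lower and 12 (10.7%) higher in exposed cells, beside 11.7% and 12% of all genes. Their median log2 change was -0.04. The lower genes were spread over the lists, with 6 of 18 in the dystrophin complex, 5 of 18 at the Z disc, 4 of 10 in fusion and adhesion, 3 of 10 in the thick filament and M band, 3 of 16 in energy metabolism, 2 of 18 in the triad and 2 of 4 in membrane excitability. In the companion thin filament list 0 of 7 genes were called in either direction by edgeR (4 had an unadjusted p under 0.05). Of 11 non-muscle counterparts of myosin, actin and their partners, 0 were lower and 2 higher.

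The largest changes among the companions were falls. TRIM55, a ubiquitin ligase of the M band, was at 114.7 ± 18.6 CPM in the 30-week controls (SD, n = 3, as for the other companions) and fell to 0.711 ± 1.19 CPM in exposed cells (SD, n = 4), with a log2 change of -7.32 (standard error 0.662, edgeR adjusted p = 6.92e-07), and in the 15-week controls it stood at 4.09 ± 3.51 CPM (SD, n = 2). Of the 81 TRIM55 counts in exposed cells 71 lay in replicate 2, at 2.49 CPM, and the other 3 exposed samples were at 0.119 ± 0.0756 CPM (SD, n = 3). Without replicate 2 the log2 change was -9.87. SGCD, the delta subunit of the sarcoglycan complex to which SGCA belongs, was at 3.40 ± 1.11 CPM in controls and 0.0263 ± 0.0526 CPM in exposed cells (log2 change -6.78), whose 3 counts all lay in replicate 2. SYNPO2, an actin-bundling protein of the Z disc, changed by -4.72 on the log2 scale, PDLIM3, which binds alpha-actinin there, by -2.98, and JAM2, an adhesion molecule, by -3.03. The calcium channel subunit CACNA2D1 changed by -3.53, from 18.4 ± 2.89 to 1.59 ± 1.13 CPM (-4.14 without exposed replicate 2), and JPH2, which ties the membrane to the calcium store, by -1.81, from 68.1 ± 6.75 to 19.4 ± 2.21 CPM.

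At the muscle membrane, DYSF, which serves membrane repair, fell from 130.8 ± 35.3 to 21.3 ± 4.01 CPM (log2 change -2.62, standard error 0.192), and the laminin receptor subunit ITGA7 fell from 126.1 ± 23.7 to 30.6 ± 2.33 CPM (log2 change -2.04, standard error 0.133). DTNA, a dystrophin-binding protein, changed by -2.08. Dystrophin itself (DMD) was higher in exposed cells, at 2.88 ± 0.403 CPM against 0.768 ± 0.141 CPM in controls (log2 change 1.89, standard error 0.214). Both 30-week groups lay below the earlier ones, since DMD had stood at 11.6 CPM in controls and 11.5 CPM in exposed cells at 24 h and at 4.10 and 4.74 CPM at 15 weeks. EEF1A2, the elongation factor of muscle and nerve, was higher in exposed cells as well, at 10.5 ± 3.07 CPM against 2.74 ± 0.907 CPM (log2 change 1.92, standard error 0.293). The 12 named companions were chosen by the size of the change among called ones with a mean of at least 1 CPM at 30 weeks. Their edgeR adjusted p was at most 0.000175. Below 1 CPM, CRYAB (log2 change 2.48) and MYOZ1 (2.30) were called higher, and KCNJ11 (-4.87) and XIRP1 (-3.83) lower. At 15 weeks and at 24 h edgeR called 0 of the 112 companions (9 and 2 at an unadjusted p under 0.05), while DESeq2 called 1 at 15 weeks and 0 at 24 h.

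**Figure D5:**
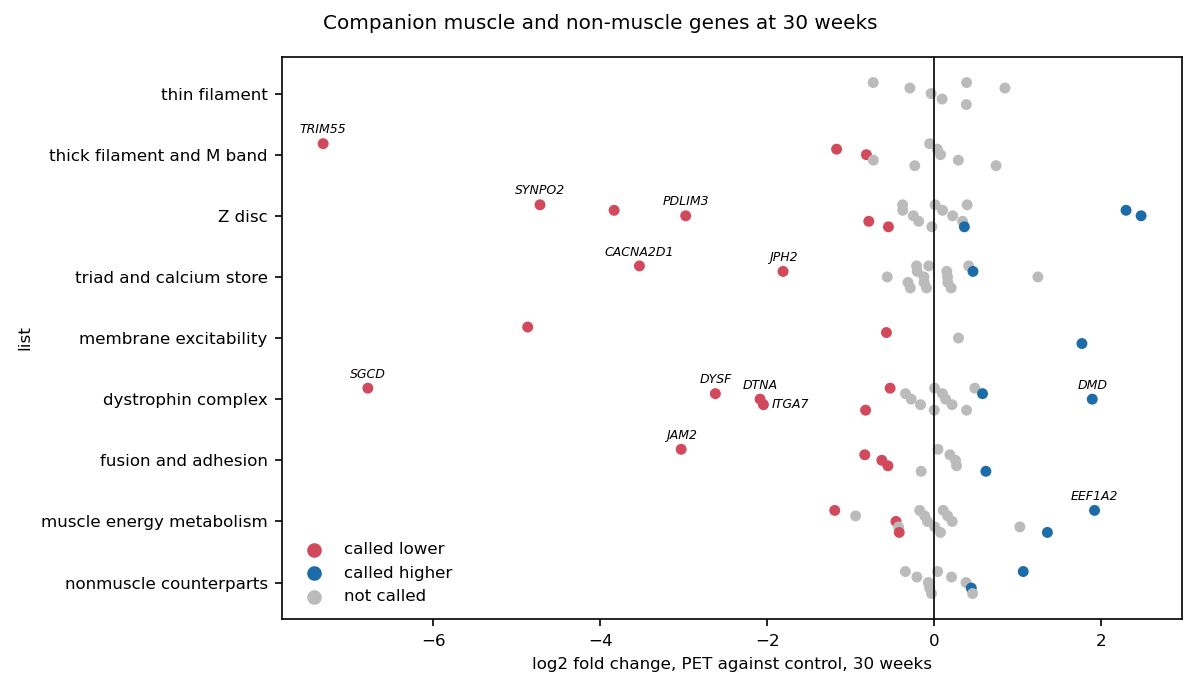
Log2 fold changes at 30 weeks, exposed against control, of the 112 tested companion genes by list. Red points were called lower, blue points higher and grey points not called, and the 12 genes described in the text carry their names. TRIM55 and SGCD lie at -7.32 and -6.78, the thin filament list holds no called gene, and DMD and EEF1A2 lie at 1.89 and 1.92.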

How the data were processed

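Reads had been filtered (Rfastp), aligned to GRCh38 and assigned to genes (Rsubread) by the authors, and the deposited raw count of each gene was used, without normalization. The counting strand is not given in the sources used here. Entrez numbers were matched to RefSeq symbols (27745 of 28395), MYLPF through its synonym. Exon lengths came from GENCODE.

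Counts were analysed in R 4.3.3 with edgeR 4.0.16: filterByExpr on the 6 conditions, TMM, and 1 quasi-likelihood fit of all 15 samples, with Benjamini-Hochberg adjustment over 16740 genes. Counting intervals are exact binomial at 95% and, like the floor of 3 counts, cover counting error only. Counts of each pair of replicates differed beyond sampling noise. The procedure was tested on simulated data. Alternatives were DESeq2 1.42.0, limma-voom 3.58.1, surrogate variables by sva 3.50.0, other filters and scaling, and leaving out samples. Companion genes were named where called at 30 weeks with a mean of at least 1 CPM, at most the 12 largest changes.

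The genes and lists were chosen with earlier results of these data known.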

Additional observations from a re-analysis of the deposited data

Results flagged for a closer look

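Exposed replicate 2 at 30 weeks lay apart from the other 3 exposed samples in 2 of the 24 genes tested by Dixon's ratio, which flags about 1 group in 20 by chance. It held 0.666 CPM of TNNI1, slow troponin I, and 0.315 CPM of JSRP1, a calcium store protein, in both cases above the other exposed samples and below every control. The same sample was the highest of the 4 in 8 of the 16 genes that were lower at 30 weeks, and the share of all genes that did so was not counted. Without it 16 members were called lower, as with it.

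The effect of exposure differed between 15 and 30 weeks by the edgeR interaction test in 7 genes, with adjusted p under 0.05 in each. This contrast crosses the batches, and is free of the batch only if the batch acted alike on both arms. The log2 difference, 30 minus 15 weeks, was -2.06 for TNNT1, -5.77 for TNNT2, -4.41 for ACTC1, -2.23 for RYR1, -5.76 for SGCA, -5.13 for CAV3 and -5.07 for KLHL41. At 15 weeks the groups overlapped in RYR1, SGCA and CAV3, and in ACTC1 the exposed samples stood above the controls (log2 change 1.10).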

How the results depend on the processing

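Of 25 other settings, 0 called a member at 24 h or 15 weeks. Over 467 refits of the 20 members at 30 weeks, 452 kept direction and side of the threshold and 8 changed sign. These were NEB with upper-quartile scaling (-0.0096), surrogate variables (-0.49), the replicate number as a block (-0.11) or a sample left out (-0.25 to 0.19), and TTN with a sample left out (-0.18 to 0.073). STAC3 lost its call in 6 and CACNB1 gained 1. With at least 10 counts in every sample only 7 members could be tested, and calls fell to 3 at 30 weeks, 4 between the 30-week and 15-week controls, 1 between the 15-week and 24 h controls and 2 for the interaction. With surrogate variables the exposed cells of 30 against 15 weeks gave 3 and the interaction 13. Leaving out 1 sample gave 15 to 18 members at 30 weeks, 16 to 19 between 30-week and 15-week controls, 3 to 7 in exposed cells of 30 against 15 weeks (3 without exposed replicate 2 at 15 weeks), 2 to 7 between 15-week and 24 h controls (2 without control replicate 2 at 24 h, 3 without control replicate 2 at 15 weeks) and 4 to 10 for the interaction. Companions called with a fold of at least 2 numbered 21 at 30 weeks and 32 between 30-week and 15-week controls, and with a sample left out 30 to 49 and 39 to 65. At 15 weeks companions called numbered 1 by DESeq2, 2 with surrogate variables, 6 with each time point alone and 0 to 3 with a sample left out (3 without exposed replicate 2 at 30 weeks). The cause was not tested, beyond the fewer genes tested under the stricter filter.

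Replicate numbers were shared by control and exposed groups. Deviations of same-numbered samples correlated at -0.06 at 24 h, 0.03 at 15 weeks and -0.12, 0.30 and 0.10 at 30 weeks. With 2 samples a group the deviations mirror each other, so 24 h and 15 weeks give a single value each. At 30 weeks control replicate 2 correlated best with exposed replicate 2, and the other controls did not correlate best with their own number. Whether same-numbered samples were handled together cannot be told from these values. With the replicate block 15 members were called at 30 weeks. Depth limits genes under 3 counts, about 0.1 CPM, whose absence cannot be told from a low level.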
